A study of Mus musculus with 21 samples.

Results

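The receptors through which vascular growth factors act on endothelium, the cell layer that lines blood and lymph vessels, were followed in mouse lung over 7 treatment groups. The set is a list of 8 gene symbols, chosen with earlier results of these data known. It holds Kdr, Flt1, Flt4 and Nrp1 (receptors of the VEGF family), Tek and Tie1 (the angiopoietin system), and Eng and Acvrl1 (receptors of the TGF-β and BMP family). All 8 were found among the 23238 gene symbols of the count files, and all 8 were among the 14727 genes with enough counts to be tested. The lowest count of any of them in a library was 60 (Flt4) and the highest was 5319 (Nrp1).

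RNA came from whole lung tissue of C57BL/6 mice, taken after bronchoalveolar lavage, with 1 animal per library and 3 animals per group. All animals, controls included, received 50 µL into the trachea once a day for 14 days and were killed on day 15. A pair of agents of vaping liquids were instilled. The first, the carrier solvent propylene glycol (PG), was tested at 826 and 1100 beside a saline control. The other, the oil vitamin E acetate (VEA), was tested at 3.12, 6.25 and 12.5 beside a control of 10% ethanol. The sample labels state the doses in mg/kg and the series description states the same numbers in mg/mL, so the doses are named here by their number. The age and sex of the animals are not given in the labels. In the order used below the animals carry the numbers 6, 8 and 10 (saline), 22, 23 and 25 (PG 826), 27, 28 and 30 (PG 1100), 12, 13 and 14 (ethanol), 56, 57 and 59 (VEA 3.12), 63, 64 and 65 (VEA 6.25), and 66, 68 and 70 (VEA 12.5).

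Libraries were made by 3′ end sequencing, in which each transcript gives reads from its end only, and held 8778028 to 11783151 counts. Levels are CPM, counts relative to a library total scaled by TMM, a factor that sets the bulk of genes equal between libraries. Reads were counted per gene symbol, and whether transcripts with other 3′ ends, such as those of soluble Flt1, were included is not given in the sources used here. Levels are compared here between groups and not between genes. Epithelial markers (Epcam, Sftpc, Ager, Scgb1a1, Cdh1) and 10 general endothelial markers were detected in every library, with summed levels of 41464 to 86345 CPM and 1035.1 to 2109.8 CPM. The share of the ribosomal transcript Rn45s was 14.6% to 26.1%, and that of haemoglobin transcripts was 4.06% to 13.8%. A gene was called higher or lower when the Benjamini-Hochberg adjusted p of edgeR's quasi-likelihood test, over all genes tested, was below 0.05, and every adjusted p below comes from that test unless another is named. Changes are given as log2 fold change ± SE.

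As background, VEGF-A binds the tyrosine kinases encoded by Kdr (VEGFR-2), the main signalling receptor of blood vessel endothelium, and Flt1 (VEGFR-1), which binds it tightly and signals weakly. Flt4 (VEGFR-3) receives VEGF-C and VEGF-D and is best known from lymphatic vessels, and Nrp1 encodes neuropilin-1, a coreceptor that is also made by cells other than endothelium. Tek (TIE2) is the receptor of angiopoietins and keeps vessels quiescent and sealed, and Tie1 is its partner with no established ligand of its own. Acvrl1 (ALK1) is the endothelial type I receptor of BMP9 and BMP10, and Eng (endoglin) is its accessory receptor. In the lung these receptors serve one of the densest capillary beds of the body, and loss of ALK1 or endoglin function is known to cause malformed vessels.

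The genes lie at separate places in the mouse genome, all annotated as protein coding (GRCm38, GENCODE M21). Kdr spans chr5:75932827-75978458 and Flt1 chr5:147561604-147726011, both on the minus strand. Flt4 spans chr11:49609263-49652739 and Nrp1 chr8:128358604-128503363, both on the plus strand. Tek spans chr4:94739289-94874976 on the plus strand and Tie1 chr4:118471191-118490061 on the minus strand. Eng spans chr2:32646595-32682669 and Acvrl1 chr15:101128522-101145336, both on the plus strand.

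The stretch of 250 bases before the start site was looked at in RefSeq's promoters for GRCm38.p6, which matched 7 of the 8 genes (all but Acvrl1). Below are those of Kdr, Tek and Eng, whose levels fell in lungs given PG 1100, and of Nrp1, whose level differed little, in 5′ to 3′ direction on the gene's own strand. Capitals mark CACCC, the letters bound by KLF factors, or their reverse complement GGGTG. The Kdr stretch is chr5:75978456-75978705 on the minus strand, and those of Tek, Eng and Nrp1 are chr4:94739039-94739288, chr2:32646345-32646594 and chr8:128358823-128359072 on the plus strand. Start sites are those of the promoter entries and can differ from GENCODE. The Nrp1 stretch lies inside the GENCODE span given above, and the Kdr stretch overlaps the edge of its span.
Kdr: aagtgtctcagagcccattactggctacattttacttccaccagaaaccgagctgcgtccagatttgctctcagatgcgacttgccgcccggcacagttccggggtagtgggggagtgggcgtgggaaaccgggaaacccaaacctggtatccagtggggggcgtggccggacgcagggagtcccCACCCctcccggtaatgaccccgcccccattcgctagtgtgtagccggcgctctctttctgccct
Tek: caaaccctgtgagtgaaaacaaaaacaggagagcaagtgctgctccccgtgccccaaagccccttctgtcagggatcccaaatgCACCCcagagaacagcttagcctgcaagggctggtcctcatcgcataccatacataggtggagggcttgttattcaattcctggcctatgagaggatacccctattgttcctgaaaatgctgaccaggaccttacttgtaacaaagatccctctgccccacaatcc
Eng: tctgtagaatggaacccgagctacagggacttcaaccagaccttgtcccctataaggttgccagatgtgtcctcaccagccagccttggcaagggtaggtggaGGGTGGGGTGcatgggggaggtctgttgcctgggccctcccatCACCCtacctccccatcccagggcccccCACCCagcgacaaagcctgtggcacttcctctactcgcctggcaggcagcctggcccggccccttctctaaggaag
Nrp1: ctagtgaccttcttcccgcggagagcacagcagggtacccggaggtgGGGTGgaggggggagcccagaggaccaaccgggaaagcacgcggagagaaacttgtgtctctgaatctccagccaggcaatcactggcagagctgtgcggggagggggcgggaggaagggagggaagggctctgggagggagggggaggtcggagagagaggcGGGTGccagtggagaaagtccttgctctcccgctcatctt
CACCC on either strand was present in all 7 stretches, and 52.0% of the 32851 RefSeq promoters hold it in the same window. The letters of ETS factors (AGGAAG or CGGAAG, either strand) were found for Flt1, Nrp1, Tie1 and Eng, 4 of 7, against 39.2% of promoters. Those of SOX factors (ACAAAG or ACAATG, either strand) were found for Tek and Eng, 2 of 7, against 25.2%. The letters of the 3 searches do not overlap one another. None of them was present in the Kdr, Tek and Eng stretches and absent from that of Nrp1. A match is a run of letters and was not tested as a binding site.

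Kdr, the main VEGF-A receptor, was lower in lungs given PG 1100 or VEA than in their controls. In saline lungs it stood at 357.0, 243.2 and 258.5 CPM, after PG 826 at 273.5, 252.6 and 269.8 CPM, and after PG 1100 at 138.1, 98.3 and 143.8 CPM. Every PG 1100 library was below every saline and PG 826 library, while the PG 826 libraries lay within the saline range. In ethanol lungs Kdr stood at 266.7, 276.6 and 369.0 CPM. It was 152.8, 163.7 and 175.4 CPM after VEA 3.12, 198.7, 145.3 and 168.5 CPM after VEA 6.25, and 168.4, 156.3 and 137.0 CPM after VEA 12.5. All 9 VEA libraries were below all 3 ethanol libraries, and the 3 doses overlapped one another.

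Flt1, the other VEGF-A receptor, varied more within groups. It stood at 144.8, 87.5 and 102.8 CPM after saline, 106.3, 137.4 and 153.5 CPM after PG 826, and 127.4, 66.0 and 73.5 CPM after PG 1100. The PG 1100 library of animal 27 lay inside the saline range and the other two lay below it. In ethanol lungs Flt1 stood at 131.4, 127.1 and 142.2 CPM. The VEA values were 95.2, 101.4 and 104.3 CPM at 3.12, 98.1, 80.2 and 88.5 CPM at 6.25, and 86.6, 90.02 and 104.2 CPM at 12.5, all below the ethanol libraries.

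Flt4 was the most scattered of the 8, with an SD of up to 45.9% of its group mean. It stood at 13.1, 7.3 and 6.1 CPM after saline, 10.2, 11.5 and 15.8 CPM after PG 826, and 15.4, 7.2 and 7.6 CPM after PG 1100. In ethanol lungs it was 10.2, 13.2 and 13.8 CPM, and over the 9 VEA libraries it ran from 7.9 to 13.3 CPM. Its 7 groups followed one another with overlap at each step. Lymphatic markers (Prox1, Lyve1, Mmrn1, Reln, Ccl21a, Pdpn), summed, spanned 536.2 to 603.0 CPM after saline and 448.9 to 649.0 CPM after PG 1100, and 591.0 to 890.9 CPM after ethanol and 529.0 to 671.4 CPM after VEA 12.5. Within the sum after PG 1100, Lyve1 was lower (251.1 ± 28.8 to 124.7 ± 65.4 CPM, SD, n = 3; adjusted p = 0.0724, not called) and the other 5 had values above 0.

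Nrp1 moved least, with a highest group mean 1.298 times the lowest. It was 498.0, 426.2 and 404.5 CPM after saline, 402.6, 462.7 and 465.9 CPM after PG 826, and 416.2, 403.2 and 395.7 CPM after PG 1100. These 3 groups overlapped. In ethanol lungs it stood at 439.9, 423.8 and 469.3 CPM. It was 500.1, 374.7 and 374.0 CPM after VEA 3.12, 394.3, 353.5 and 279.1 CPM after VEA 6.25, and 397.3, 363.4 and 335.4 CPM after VEA 12.5. The upper 2 VEA doses lay below the ethanol libraries, and VEA 3.12 straddled them.

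Tek was the most even between animals of a group, with an SD of at most 12.1% of the group mean. It stood at 72.8, 72.6 and 67.2 CPM after saline, 59.6, 68.5 and 68.4 CPM after PG 826, and 31.98, 36.0 and 36.5 CPM after PG 1100. Ethanol lungs had 73.3, 68.4 and 71.1 CPM. VEA lungs had 49.5, 40.5 and 49.5 CPM at 3.12, 51.0, 49.8 and 40.6 CPM at 6.25, and 50.4, 47.4 and 41.8 CPM at 12.5. The libraries fell into 3 levels with no overlap: both controls and PG 826 on top, all VEA doses below them, and PG 1100 at the bottom.

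Tie1 was 101.9, 64.4 and 62.3 CPM after saline, 79.4, 85.9 and 94.98 CPM after PG 826, and 72.6, 40.3 and 46.2 CPM after PG 1100. As for Flt1, the PG 1100 library of animal 27 lay inside the saline range and the other two below it. Ethanol lungs had 92.6, 75.6 and 106.5 CPM, and the 9 VEA lungs had 55.0 to 79.1 CPM. VEA 3.12 and VEA 12.5 each overlapped ethanol.

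Eng was 114.7, 53.2 and 96.1 CPM after saline, with animal 8 low, and 85.2, 103.4 and 127.5 CPM after PG 826. After PG 1100 it was 47.1, 29.1 and 48.0 CPM, below every other library of the study. Ethanol lungs had 115.1, 119.9 and 92.0 CPM. VEA lungs had 79.2, 94.2 and 77.0 CPM at 3.12, 76.4, 90.5 and 81.7 CPM at 6.25, and 89.2, 74.7 and 74.0 CPM at 12.5. Of the 9 VEA values, 1 lay above the lowest ethanol library and the rest below it.

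Acvrl1 was 236.2, 150.4 and 189.1 CPM after saline, 178.7, 198.0 and 230.0 CPM after PG 826, and 123.6, 71.0 and 113.6 CPM after PG 1100. Here too PG 1100 lay below every other library of the study. Ethanol lungs had 211.1, 186.7 and 212.9 CPM. The VEA values were 171.5, 147.5 and 162.7 CPM at 3.12, 153.7, 157.0 and 151.4 CPM at 6.25, and 137.1, 149.1 and 124.7 CPM at 12.5, all below the ethanol libraries.

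**Figure D1:**
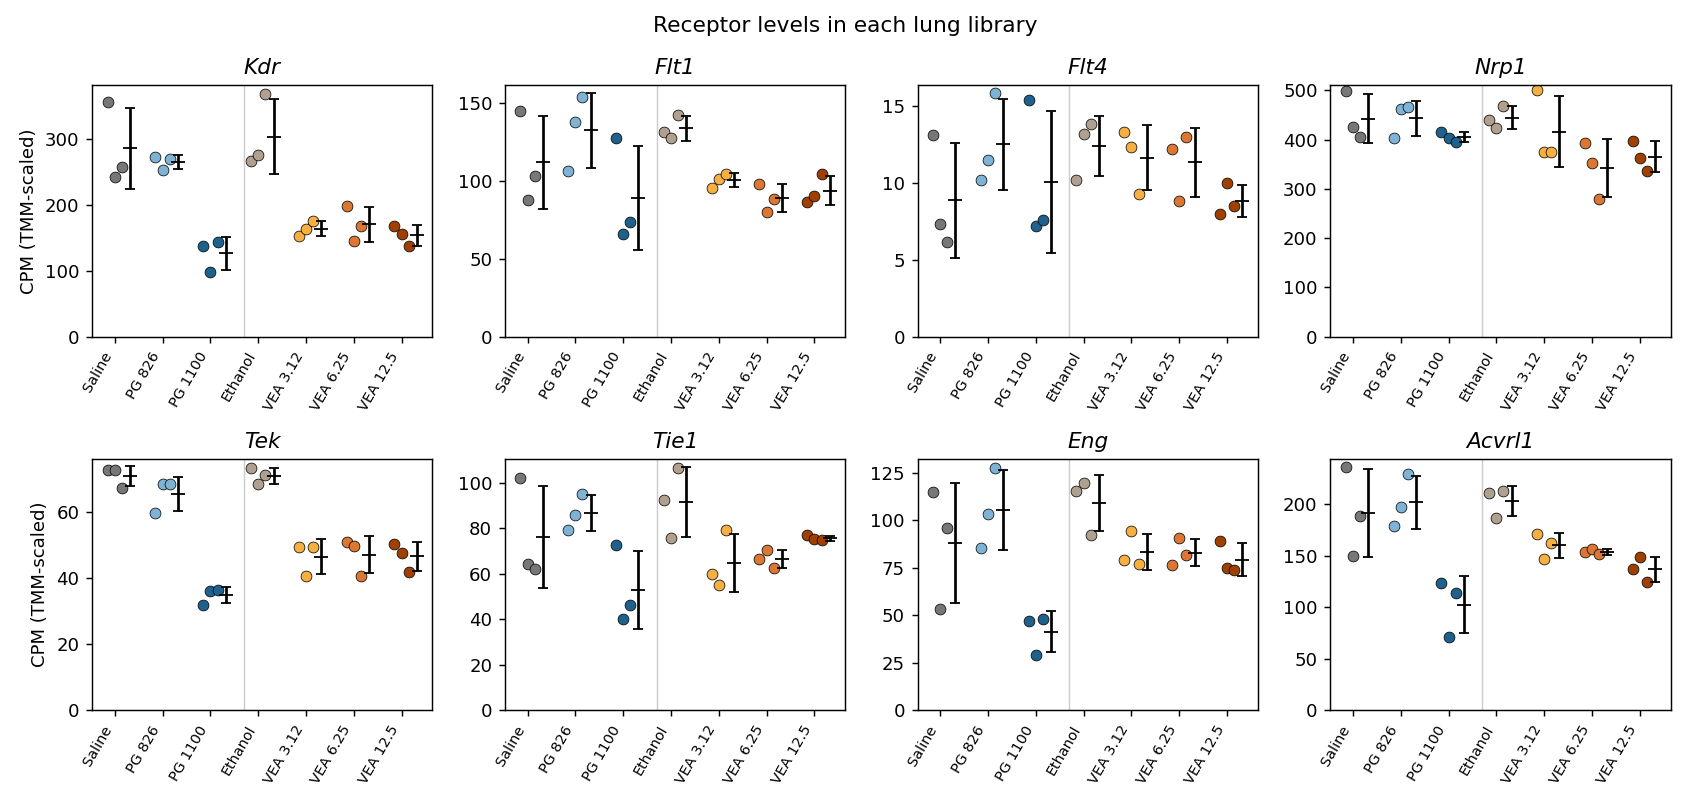
Level of each receptor gene in every lung library (y axis, TMM-scaled CPM from 0) by treatment group (x axis), with 1 point per animal and a cross bar and whiskers for the group mean ± SD (n = 3). The PG 1100 points of Kdr, Tek, Eng and Acvrl1 lie below the saline points. The VEA points of Kdr and Tek lie below the ethanol points at each of the 3 doses. For Flt4, groups next to one another in mean level overlap, while the points of the top VEA dose lie below the ethanol points.

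In the order of group means, ethanol was highest for 7 of the 8 genes and PG 826 for Flt4. PG 1100 was lowest for Kdr, Tek, Tie1, Eng and Acvrl1, VEA 6.25 for Flt1 and Nrp1, and VEA 12.5 for Flt4. Neighbours in these orders overlapped in 41 of 48 steps. The order of Kdr was ethanol (304.1 ± 56.4 CPM, SD, n = 3), saline (286.3 ± 61.7), PG 826 (265.3 ± 11.1), VEA 6.25 (170.8 ± 26.8), VEA 3.12 (164.0 ± 11.3), VEA 12.5 (153.9 ± 15.8) and PG 1100 (126.8 ± 24.8), with its only gap after PG 826. Tek had gaps after PG 826 and before PG 1100, and Acvrl1 had gaps on both sides of VEA 12.5 (137.0 ± 12.2). Eng had its only gap between VEA 12.5 (79.3 ± 8.59) and PG 1100 (41.4 ± 10.6), and Tie1 its only gap between VEA 12.5 and VEA 6.25. The highest group mean was 2.63 times the lowest for Eng, 2.40 for Kdr, 2.04 for Tek, 1.98 for Acvrl1, 1.73 for Tie1, 1.501 for Flt1 and 1.42 for Flt4.

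At the high PG dose, Kdr fell by 1.18 ± 0.16 against saline (adjusted p = 2.75e-06), which left it 55.7% lower, and Tek fell by 1.03 ± 0.14 (adjusted p = 5.53e-06), or 50.9%. The ALK1 pair fell as well, Eng by 1.09 ± 0.21 (adjusted p = 0.00102) and Acvrl1 by 0.90 ± 0.16 (adjusted p = 0.000182). These 4 of 8 were called lower and none was called higher, and 3.23% of all genes tested were called lower and 4.09% higher in this comparison. The same 4 were the members whose PG 1100 libraries all lay below the saline libraries, which held for 9.69% of all genes. In lung tissue a smaller number of endothelial cells and less RNA of a gene per cell cannot be told apart.

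The other 4 receptors did not pass the test after PG 1100. Tie1 changed by -0.52 ± 0.19 (adjusted p = 0.0863, 95% interval -0.90 to -0.14) and Flt1 by -0.33 ± 0.19 (adjusted p = 0.343, interval -0.71 to 0.05). Nrp1 changed by -0.13 ± 0.14 (adjusted p = 0.673, interval -0.41 to 0.15) and Flt4 by 0.18 ± 0.31 (adjusted p = 0.819, interval -0.44 to 0.80). The median over the 8 was -0.71, against 0.006 over all genes. Without the library of animal 27, Tie1 (-0.82, adjusted p = 0.00356) and Flt1 (-0.68, adjusted p = 0.00815) were called lower, and the value of Flt4 turned to -0.26. Tie1 was also called lower with all animals and no filter on low counts (-0.52, adjusted p = 0.0222). The calls for Kdr, Tek, Eng and Acvrl1 held in each of the 14 alternative analyses. These include the endothelial scale described below. In further variants run on that scale only Kdr was called throughout.

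The low PG dose was compared with saline in the same way, and no receptor was called. With edgeR 0 of 8 passed, 0 had an unadjusted p under 0.05, and DESeq2 also called 0. Without saline animal 6, in which most receptors were high, 4 of 8 had an unadjusted p under 0.05 and 0 passed. The share of all genes with such a p was not counted there. Over the analyses that left out 1 animal, the highest values were rises: Flt4 (0.90), Eng (0.50), Flt1 (0.48) and Tie1 (0.46). The lowest value was that of Kdr (-0.21). With all animals the values ran from -0.11 (Tek) to 0.49 (Flt4), 2 of 8 were below 0, and the smallest adjusted p was 0.651. The 95% intervals together spanned -0.42 to 1.11, and that of Kdr was -0.42 to 0.20. Both PG doses share the saline animals. Over all genes 0.136% were called in this comparison.

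Between the PG doses, 5 of 8 receptors were lower at 1100 than at 826, and 2.71% of all genes were. Eng differed most (-1.35 ± 0.21, adjusted p = 0.000155), followed by Kdr (-1.07 ± 0.16, adjusted p = 3.00e-05), Acvrl1 (-0.98 ± 0.16, adjusted p = 0.000112) and Tek (-0.91 ± 0.14, adjusted p = 7.07e-05). Tie1 was lower by a smaller amount (-0.71 ± 0.19, adjusted p = 0.0175). That call was lost without PG animal 25 (adjusted p = 0.109), 28 (0.192) or 30 (0.0923), with only these groups in the fit (0.0502) and on the endothelial scale described below (0.554), where Tek was not called either (-0.32, adjusted p = 0.115). Flt1 was called without animal 22 (adjusted p = 0.0294) or 27 (0.000367). With all animals Flt1 was called by limma-voom (-0.61, adjusted p = 0.0407) and by edgeR without a filter on low counts (-0.57, adjusted p = 0.00603). In the reported fit Flt1 (-0.57, adjusted p = 0.0667), Flt4 (-0.31) and Nrp1 (-0.13) did not pass. This comparison and that with saline share the PG 1100 animals.

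Each VEA dose was compared with 10% ethanol. Kdr fell at each of the 3 doses, by 0.89 ± 0.16 at 3.12 (adjusted p = 0.000283), 0.83 ± 0.16 at 6.25 (adjusted p = 0.00068) and 0.98 ± 0.16 at 12.5 (adjusted p = 3.14e-05). Tek fell by 0.61 ± 0.14 (adjusted p = 0.00653), 0.59 ± 0.14 (adjusted p = 0.00904) and 0.61 ± 0.14 (adjusted p = 0.00358). Acvrl1 fell by 0.57 ± 0.16 at 12.5 (adjusted p = 0.0148), after values of -0.34 (adjusted p = 0.223) and -0.40 (adjusted p = 0.137) at the lower doses. The receptors called lower were thus 2, 2 and 3 of 8 with rising dose, and 2.09%, 2.25% and 4.23% of all genes were called lower. The 3 doses share the 3 ethanol animals. Kdr was called at each dose in all 14 alternatives run there. The call for Tek was lost at 3.12 without animal 57 (adjusted p = 0.0559), where 1 receptor remained, and at 6.25 without animal 65 (adjusted p = 0.0801), where 1 remained. The call for Acvrl1 at 12.5 was lost without ethanol animal 12 (adjusted p = 0.0557) or 14 (0.0567), or VEA animal 66 (0.0513) or 70 (0.101).

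The other receptors had smaller values at the top VEA dose: Flt1 -0.51 ± 0.19 (adjusted p = 0.0775), Flt4 -0.49 ± 0.30 (0.362), Eng -0.46 ± 0.20 (0.176), Nrp1 -0.28 ± 0.14 (0.216) and Tie1 -0.27 ± 0.18 (0.419). The values of all 8 were below 0 at each dose, where 50.76%, 50.3% and 51.27% of all genes were. These signs are not independent, since the doses share the ethanol animals. Among the alternatives there were exceptions. On the endothelial scale described below Nrp1 was above 0 at 3.12 and 12.5, Flt4 at 3.12 and 6.25, and Tie1 at 12.5. On the TMM scale Flt4 was above 0 at 3.12 without animal 59 (0.0513) and at 6.25 without animal 64 (0.0226). Nrp1 was called lower at 6.25 without animal 63 (-0.49, adjusted p = 0.0486). Flt1 was called lower at 6.25 by DESeq2 (-0.59, adjusted p = 0.0409) and by edgeR without a filter on low counts (-0.59, adjusted p = 0.00476). VEA libraries lay wholly below the ethanol libraries for 4 of 8 receptors at 3.12, where 11.8% of all genes did so. They did for 7 of 8 at 6.25 (11.5% of genes; all but Flt4) and for 7 of 8 at 12.5 (14.8% of genes; all but Tie1).

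With the 3 VEA doses averaged, 4 of 8 receptors were called lower than after ethanol, and 5.57% of all genes were. Kdr fell by 0.90 ± 0.12 (adjusted p = 1.79e-06), Tek by 0.60 ± 0.11 (adjusted p = 0.00026), Flt1 by 0.50 ± 0.15 (adjusted p = 0.0214) and Acvrl1 by 0.44 ± 0.13 (adjusted p = 0.017). Tie1 (-0.41, adjusted p = 0.063), Eng (-0.41, adjusted p = 0.102), Nrp1 (-0.25, adjusted p = 0.14) and Flt4 (-0.24, adjusted p = 0.603) did not pass. The median over the 8 was -0.43. Without ethanol animal 12 or 14, 2 were called, Kdr and Tek, since Flt1 (adjusted p = 0.0685 and 0.112) and Acvrl1 (adjusted p = 0.0875 and 0.0892) were lost, and without ethanol animal 13 Flt1 was lost (adjusted p = 0.0601) while Tie1 was gained (0.0466). Tie1 was gained without VEA animal 59 as well (adjusted p = 0.0335), and Flt1 was lost without animals 8, 13 and 65 together (0.0596). Without a filter on low counts 6 were called, with Tie1 (adjusted p = 0.0157) and Eng (0.0134) gained. With only the groups compared in the fit the same 6 were called (Tie1 0.00894, Eng 0.00479).

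Over the 3 VEA doses no trend was detected. The slopes ran from -0.045 to 0.025 log2 units per unit of dose, 0 of 8 passed in edgeR, 0 had an unadjusted p under 0.05, and DESeq2 called 0. Of all genes 0% were called. The vehicles were compared too, and ethanol against saline gave 0 calls among the 8 in edgeR and in DESeq2 and 0 with an unadjusted p under 0.05, where 0% of all genes were called. Without saline animal 6, 4 of 8 had an unadjusted p under 0.05 and 0 passed, and the share of all genes with such a p was not counted. Over the analyses that left out 1 animal, the highest values were rises: Flt4 (0.89), Eng (0.54), Tie1 (0.53) and Flt1 (0.49). The lowest value was that of Kdr (-0.076). With all animals the values lay between 0.0013 (Tek) and 0.48 (Flt4) with a smallest adjusted p of 0.902, and the sign of those near 0 changed with the scaling and with the animals kept. The interval of Kdr was -0.23 to 0.40.

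**Figure D2:**
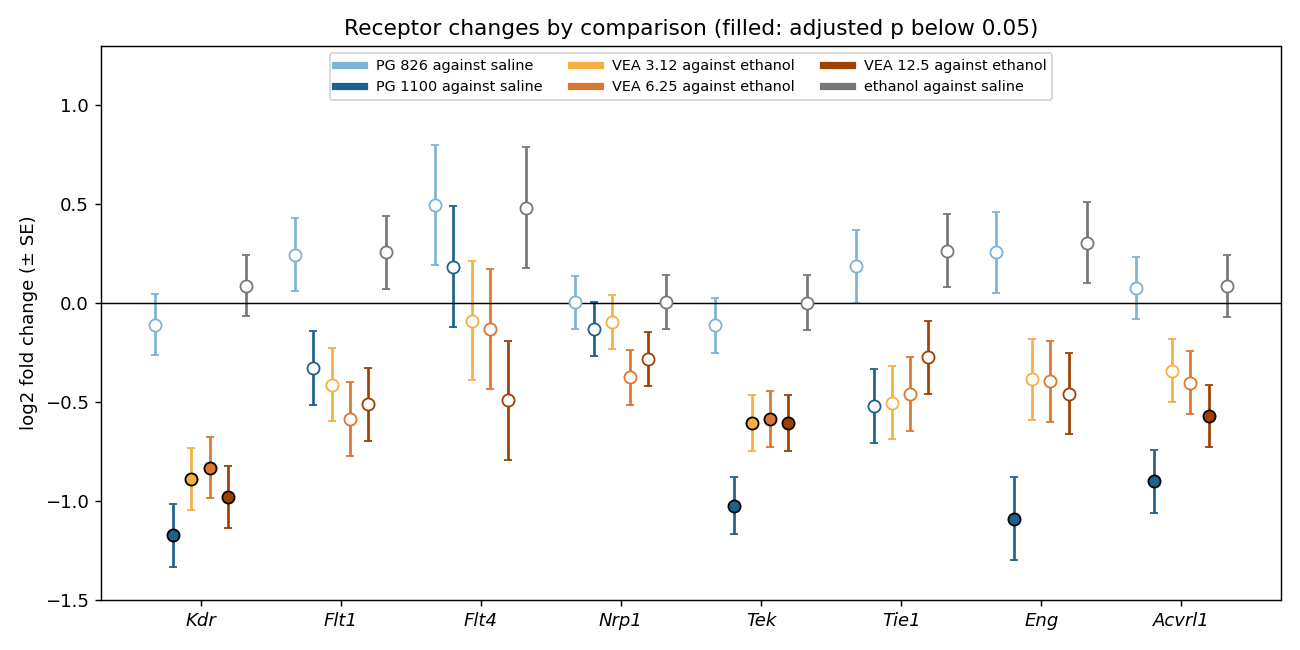
Log2 fold change ± SE (y axis) of each receptor gene (x axis) in the 6 comparisons with a control, coloured by comparison, with filled points for an adjusted p below 0.05. Kdr and Tek are filled for PG 1100 and all 3 VEA doses, Acvrl1 for PG 1100 and VEA 12.5, Eng for PG 1100 alone, and no point is filled for PG 826 or ethanol.

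Whether the top doses of the agents differed in effect was tested directly, as the VEA 12.5 change minus the PG 1100 change. None of the 8 passed in edgeR or DESeq2, and 0.19% of all genes were called. Of the 8, 2 had an unadjusted p under 0.05, and the share of all genes with such a p was not counted. The smallest p-values were those of Eng (0.63 ± 0.29, unadjusted p = 0.0393, adjusted p = 0.599) and Tek (0.42 ± 0.20, unadjusted p = 0.0437, adjusted p = 0.613), both in the direction of a deeper fall after PG. Flt4 differed by -0.68 ± 0.43 in the opposite direction (adjusted p = 0.785). Kdr differed by 0.19 ± 0.22, with an interval of -0.25 to 0.64. In the reported fit Eng was called after PG 1100 and not after VEA. It was called lower at VEA 12.5 without a filter on low counts (-0.46, adjusted p = 0.0398). With only the groups compared in the fit it was called there as well (-0.45, adjusted p = 0.013). The difference between the agents was not established.

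The receptors were next scaled to other endothelial genes, to see whether they moved more or less than these. In place of TMM each library was scaled to the geometric mean of 10 general endothelial genes: Pecam1, Cdh5, Cldn5, Egfl7, Esam, Emcn, Ramp2, Icam2, Clec14a and Robo4. That mean was 152.1, 135.1 and 131.1 CPM after saline and 101.8, 80.9 and 104.9 CPM after PG 1100, and 150.5, 142.9 and 145.6 CPM after ethanol and 113.9, 116.2 and 112.4 CPM after VEA 12.5. On the ordinary scale 7 of the 10 were lower after PG 1100, among them Ramp2 (-1.08), Clec14a (-1.02), Cldn5 (-0.81), Cdh5 (-0.65) and Egfl7 (-0.63), and 3 of 10 after VEA 12.5. Of all genes 3.23% and 4.23% were called lower in these comparisons. Emcn was not called in either comparison (0.27 and 0.05). On the scale of these genes the median of all genes was 0.555 for PG 1100 and 0.343 for VEA 12.5, against 0.006 and -0.0143 on the TMM scale.

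Relative to these genes, Kdr still fell after PG 1100, by 0.63 ± 0.16 (adjusted p = 0.0023), as did Eng by 0.56 ± 0.19 (adjusted p = 0.0179), Tek by 0.47 ± 0.16 (adjusted p = 0.0224) and Acvrl1 by 0.37 ± 0.15 (adjusted p = 0.0466). On this scale 0.781% of all genes were called lower. Nrp1 was higher by 0.43 ± 0.16 (adjusted p = 0.0287) and Flt4 by 0.74 ± 0.30 (adjusted p = 0.0465), where 38.4% of all genes were called higher. Flt1 (0.22, adjusted p = 0.334) and Tie1 (0.03, adjusted p = 0.919) did not pass. The Benjamini-Hochberg adjustment depends on the p values of all genes tested. With so many genes called higher here, calls on this scale and on the TMM scale are not equally strict. Of the 6 calls, 3 were made without saline animal 8 (Kdr, Eng, Acvrl1), 2 without saline animal 10 (Kdr, Tek) and 2 without PG animal 28 (Kdr, Tek). Without saline animal 6 they were 4 (Kdr, Tek, Nrp1, Flt4). Leaving out PG animal 27 gave 4 (Kdr, Eng, Acvrl1, Nrp1), and PG animal 30 gave 4 (Kdr, Eng, Nrp1, Flt4). Kdr was called in each of these. Without Emcn among the reference genes 4 receptors were called (Kdr, Eng, Nrp1, Flt4), and without a count filter 4 (Kdr, Tek, Eng, Nrp1).

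After VEA only Kdr passed on the endothelial scale, with -0.60 at 3.12 (adjusted p = 0.0116), -0.56 at 6.25 (adjusted p = 0.019), -0.63 ± 0.16 at 12.5 (adjusted p = 0.00486) and -0.59 ± 0.13 with the doses averaged (adjusted p = 0.000808). The share of all genes called lower was 0.462%, 0.598%, 0.869% and 1.31%. Tek had adjusted p values of 0.206 and 0.225 at the lower 2 doses. As log2 ratios to the endothelial mean, Kdr stood at 1.04 ± 0.27 (SD, n = 3) after ethanol and 0.43 ± 0.14 after VEA 12.5. The same ratio was 1.02 ± 0.19 after saline and 0.39 ± 0.10 after PG 1100. Treated and control libraries did not overlap in this ratio in either case.

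**Figure D3:**
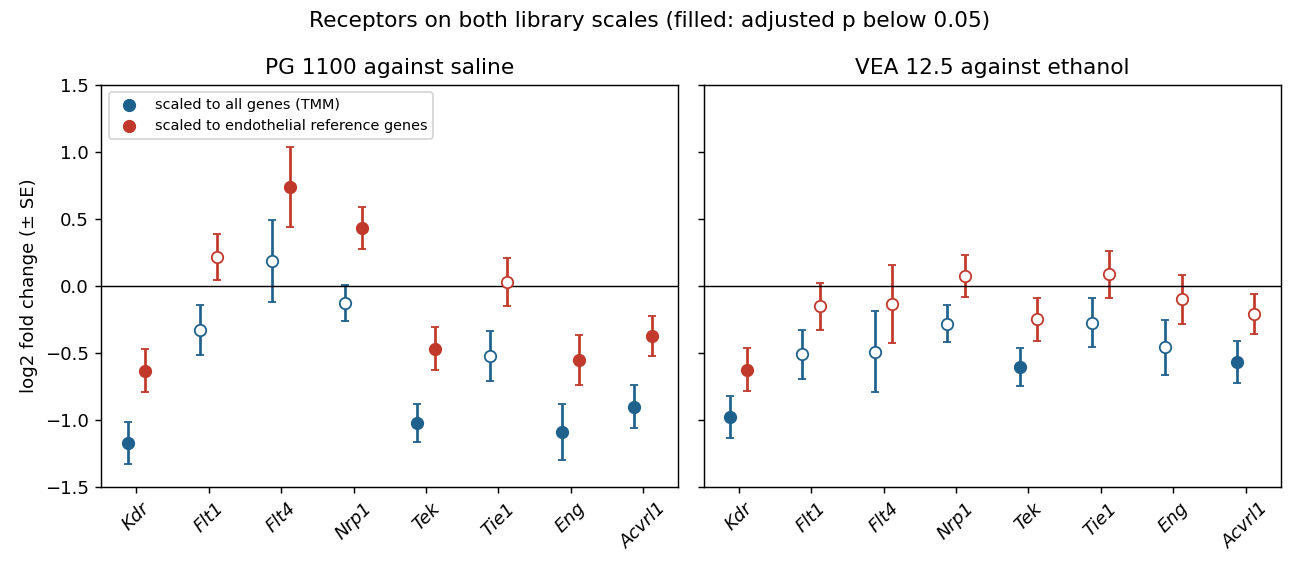
Log2 fold change ± SE (y axis) of each receptor gene (x axis) after PG 1100 (left) and VEA 12.5 (right), with libraries scaled to all genes by TMM (blue) or to 10 endothelial genes (red), and filled points for an adjusted p below 0.05. Red points lie above blue ones throughout, Kdr stays below 0 and filled in both panels, and Nrp1 lies below 0 on the blue scale and above it on the red. Filled points of the red and blue scales are not equally strict calls.

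Of the ligands of these receptors, 12 of 15 had enough counts to be tested. After PG 1100, 2 fell and 1 rose. For this list and those below, 3.23% of all genes were called lower and 4.09% higher after PG 1100. After VEA 12.5 the shares were 4.23% lower and 5.48% higher. Vegfa, the ligand of Kdr and Flt1, fell by 0.67 ± 0.17 (adjusted p = 0.00943), from 255.5 ± 53.5 to 160.2 ± 28.5 CPM (SD, n = 3). Bmp6, a BMP known from endothelium, fell by 3.11 ± 0.73 (adjusted p = 0.00493) from a low level, 3.13 ± 0.66 to 0.35 ± 0.12 CPM. Tgfb3 rose by 0.58 ± 0.18 (adjusted p = 0.0466). After VEA 12.5 Vegfa was again lower (-0.54 ± 0.17, adjusted p = 0.0344) and the other 11 were not called. The angiopoietins of Tek were not called at either top dose: Angpt1 changed by -0.48 ± 0.16 after PG 1100 (adjusted p = 0.066) and -0.34 ± 0.16 after VEA 12.5 (adjusted p = 0.211), and Angpt2 by -0.47 ± 0.24 (adjusted p = 0.26) and -0.67 ± 0.24 (adjusted p = 0.0715).

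Among 11 partner receptors, 3 fell and 2 rose after PG 1100. Tgfbr3 (betaglycan, a coreceptor related to endoglin) fell by 1.304 ± 0.21 (adjusted p = 6.73e-05), Bmpr2, the type II receptor that pairs with ALK1, by 0.89 ± 0.14 (adjusted p = 5.49e-05), and Ptprb, the phosphatase VE-PTP that acts on TIE2, by 0.80 ± 0.16 (adjusted p = 0.000782). Nrp2, the neuropilin of VEGFR-3, rose by 0.75 ± 0.19 (adjusted p = 0.00879) and Tgfbr2 by 0.53 ± 0.16 (adjusted p = 0.0425). After VEA 12.5, Ptprb (-0.87 ± 0.16, adjusted p = 0.000228) and Bmpr2 (-0.48 ± 0.14, adjusted p = 0.0241) were lower and Nrp2 higher (0.62 ± 0.19, adjusted p = 0.0282). Its relative Nrp1, given above, was not called in either comparison on the TMM scale; the difference between them was not tested.

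Downstream of ALK1, 4 of 11 genes of BMP and SMAD signalling fell after PG 1100 and none rose. These were Smad6, an inhibitory SMAD (-1.65 ± 0.29, adjusted p = 0.00102), Tmem100, an endothelial gene controlled by ALK1 (-1.14 ± 0.22, adjusted p = 0.00185), the transcriptional repressor Hey1 (-0.69 ± 0.18, adjusted p = 0.0136) and the inhibitor of DNA binding Id3 (-0.55 ± 0.15, adjusted p = 0.0159). After VEA 12.5, Hey1 fell (-0.59 ± 0.18, adjusted p = 0.0278) and Id2 rose (0.68 ± 0.14, adjusted p = 0.000699). Of 9 genes tied to VEGF and Notch signalling, 2 fell after PG 1100: Dll4, the Notch ligand of endothelial tip cells (-1.48 ± 0.27, adjusted p = 0.000294), and Esm1, a secreted product of VEGF-stimulated endothelium (-1.51 ± 0.30, adjusted p = 0.000793). After VEA 12.5 Esm1 (-1.34 ± 0.29, adjusted p = 0.00203) and the Notch ligand Jag1 (-0.81 ± 0.26, adjusted p = 0.0403) fell. Median changes were -0.48 and -0.26 over the BMP and SMAD list and -0.34 and -0.62 over the VEGF and Notch list, for PG 1100 and VEA 12.5.

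Of 20 transcription factors that act in endothelium, 8 fell and 1 rose after PG 1100, and 6 fell after VEA 12.5. Of all genes 3.23% were called lower and 4.09% higher after PG 1100, and 4.23% lower after VEA 12.5. The flow-responsive factor Klf2 fell by 1.40 ± 0.21 (adjusted p = 6.67e-05) and by 1.16 ± 0.21 (adjusted p = 0.000422). Gata2 fell by 1.13 ± 0.17 (adjusted p = 1.94e-05) and 0.54 ± 0.17 (adjusted p = 0.0301), Epas1 (HIF-2α) by 0.83 ± 0.15 (adjusted p = 0.000294) and 0.58 ± 0.15 (adjusted p = 0.0101), and Ets1 by 0.78 ± 0.15 (adjusted p = 0.000491) and 0.56 ± 0.15 (adjusted p = 0.0109). Erg (-0.67 ± 0.18, adjusted p = 0.0172) and Foxf1 (-0.84 ± 0.23, adjusted p = 0.0239) were called after PG 1100, and Klf4 (-0.68 ± 0.16, adjusted p = 0.00319) and Lmo2 (-0.54 ± 0.18, adjusted p = 0.0445) after VEA 12.5. The single gene that rose after PG 1100, Sox17 (0.81 ± 0.23, adjusted p = 0.0269), is named because it went the other way, and its groups overlapped.

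Other cell types moved in the same comparisons. Of 8 monocyte and macrophage markers, 4 rose after PG 1100, where 4.09% of all genes were called higher, and 7 after VEA 12.5, where 5.48% were. Their summed level was 1472 to 2689 CPM after saline and 2870 to 5427 CPM after PG 1100, and 1889 to 2278 CPM after ethanol and 2725 to 2925 CPM after VEA 12.5. Of 7 fibroblast and mural markers, 3 rose after PG 1100, and 2 rose and 2 fell after VEA 12.5, with sums of 676.7 to 1117 CPM (saline), 1594 to 2203 CPM (PG 1100), 788.6 to 1126 CPM (ethanol) and 1040 to 1385 CPM (VEA 12.5). All 6 haemoglobin symbols fell in both, with sums of 63301 to 162410 CPM (saline), 45513 to 52135 CPM (PG 1100), 88709 to 113140 CPM (ethanol) and 36555 to 46663 CPM (VEA 12.5). Of 5 epithelial markers 1 was called lower in each comparison. Their sums were 66622 to 86345 CPM (saline), 44492 to 59292 CPM (PG 1100), 63287 to 84174 CPM (ethanol) and 41464 to 43932 CPM (VEA 12.5), and treated and control sums did not overlap. The list did not fall as a whole. Its median change was -0.016 after PG 1100 (range -1.24 to 0.41) and 0.074 after VEA 12.5 (range -1.14 to 0.23). After PG 826, where none was called lower, the sum was 55882 to 59202 CPM, also below saline. Lymphatic markers had 1 of 6 higher after PG 1100, Ccl21a (1.06 ± 0.16, adjusted p = 1.54e-05), a symbol with near-identical gene copies, and none called after VEA 12.5. No gene of the macrophage, fibroblast and mural, epithelial or haemoglobin lists was at 0 in a library. The part of these cell types in the receptor changes was not tested.

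**Figure D4:**
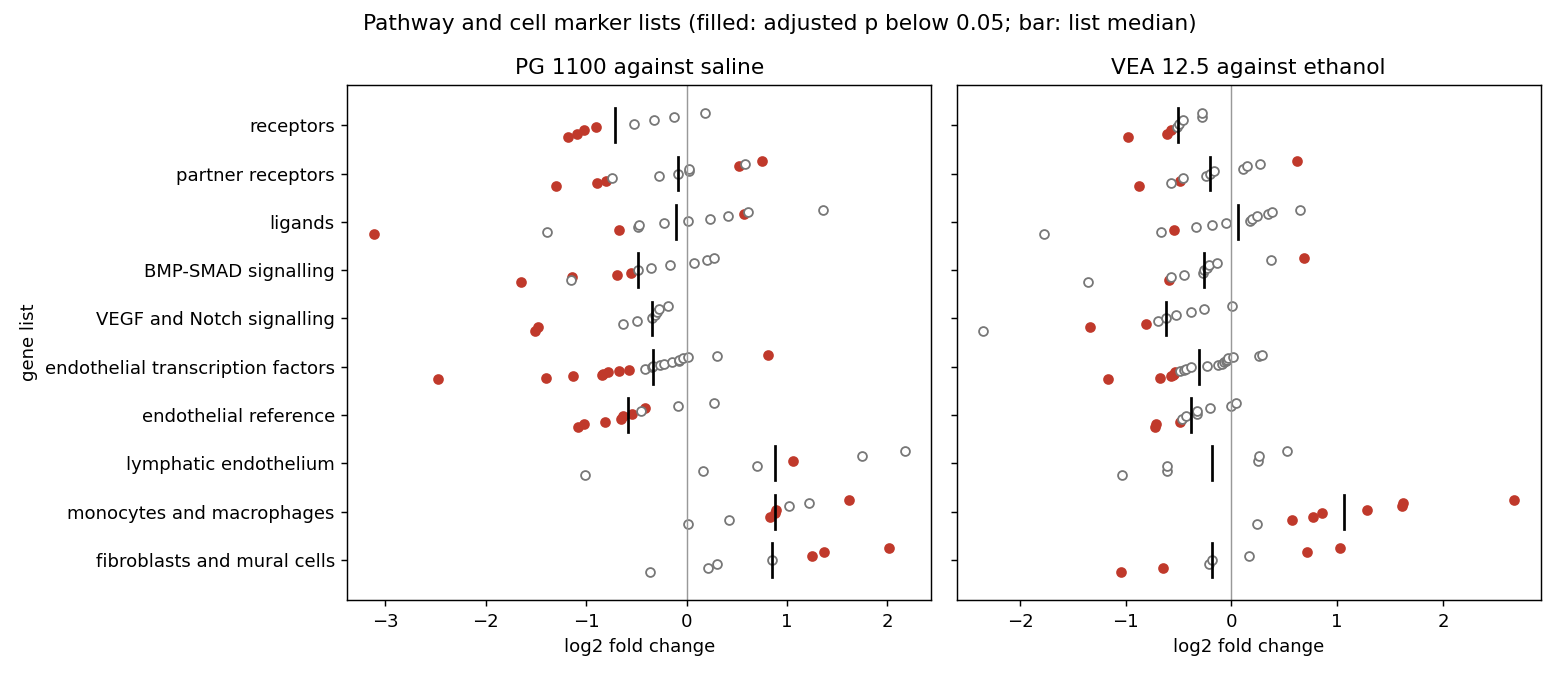
Log2 fold change (x axis) of each tested gene in the receptor set and 9 pathway and cell marker lists (y axis), after PG 1100 (left) and VEA 12.5 (right), with 1 point per gene, filled for an adjusted p below 0.05, and a bar at the list median. Most points of the receptors, endothelial transcription factors and endothelial reference genes lie left of 0, and those of the monocyte and macrophage list lie right of 0 in both panels.

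Over all 21 libraries the receptors varied together to different degrees. Of their 28 pairs, Kdr and Tek were most alike in log2 CPM (Pearson r = 0.898) and the pair values ran down to 0.085, with a median of 0.667. With each group's mean removed, the median was 0.395 and the range -0.192 to 0.805. Kdr and Tek then had r = 0.099. Eng and Acvrl1, receptors of one complex, had r = 0.893 over all libraries and 0.756 within groups. Flt1 with Tie1 (0.805) and Flt1 with Flt4 (0.799) were more alike than these within groups. Libraries share a depth and a scaling factor, which all pairs have in common.

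Other genes were ranked by their correlation with the mean of the 8 standardised receptor levels, over 21 libraries and 10590 genes of at least 5 CPM. The 10 most alike were Cdh5 (r = 0.960), which encodes VE-cadherin of endothelial junctions, Ptprb (0.953), Thbd (0.934), the thrombin receptor thrombomodulin, Aldh2 (0.930), Pllp (0.927), Ece1 (0.921), Ctnnd1 (0.914), Jun (0.905), Otud1 (0.905) and Igf1r (0.902). The 5 at the opposite end were Atp5f1 (-0.939), Wbp5 (-0.935), Cstb (-0.932), Slc6a14 (-0.916) and Ppia (-0.910). With group means removed the most alike were Bcl9l (0.948), Ski (0.919), Dock6 (0.896), Loxl1 (0.894) and Mbtps1 (0.888). Of the 10 endothelial genes used for scaling, Cdh5 was the highest and Emcn the lowest (r = -0.26). The others ran from 0.52 (Icam2) to 0.77 (Clec14a).

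Taken singly, the receptors had different nearest genes. Kdr was most like Osbpl6 (r = 0.941) and Tspan13 (0.937), and Tek like Fmo1 (0.940) and Tspan13 (0.930). Flt1 and Tie1 shared Ltbp4 (0.906 and 0.894), with Rusc2 (0.873) and Tmtc1 (0.883) next. Eng was most like Casz1 (0.934) and Foxf1 (0.919), and Acvrl1 like Epas1 (0.943) and Bmpr2 (0.942). Flt4 (Wdfy3 0.799, Sema3f 0.795) and Nrp1 (Lmbrd2 0.847, Tnrc6a 0.822) had the weakest matches.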

How the data were processed

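Gene expression was measured in 21 lung libraries of 7 groups of 3 animals. Per the labels, Lexogen QuantSeq 3′ libraries were made from 500 ng of total RNA, and per the submitters' processing notes Bowtie2, bedtools and the assembly mm10 were used; versions and the counting annotation are not given in the sources used here. The files deposited by the authors hold raw counts per gene symbol, 23282 rows with 23238 symbols, and 35 repeated symbols were added up. Whether the animals were housed or processed in batches is not given in the labels.

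All 21 libraries were fitted in 1 edgeR 4.0.16 quasi-likelihood model (R 4.3.3, the data.table package, version 1.17.8) with robust spread, after filterByExpr by group (14727 genes) and TMM scaling (factors 0.847 to 1.15). It had 14 residual degrees of freedom and a biological coefficient of variation of 23.81%. Counts of libraries in a group differed by a chi-square of 7.41 to 36.5 per degree of freedom, far more than sampling noise. Each of 10 comparisons was adjusted by Benjamini-Hochberg over all genes tested. A log2 fold change's SE is its size over the square root of F, and its 95% interval uses the gene's own degrees of freedom. Correlations use log2 CPM with a prior count of 2. DESeq2 1.42.0, limma-voom (limma 3.58.1), RLE factors, no filter, only the groups compared, an endothelial scale, removal of Rn45s and haemoglobin genes, removal of 3 libraries in which few genes were detected, dose ranks and leaving out each animal were tried. Scripts were tested on simulated data.

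The 8 genes and the 11 other lists were chosen with earlier results of these data known. Named were all 8 receptors, up to 6 called genes per list by smallest p and up to 2 uncalled, and genes by rank of likeness; exceptions are stated.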

Additional observations from a re-analysis of the deposited data

How the results depend on the processing

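Leaving out each animal in turn gave 4 to 6 receptors called for PG 1100 against saline, 4 to 6 against PG 826, 1 to 2 for VEA 3.12, 1 to 3 for VEA 6.25, 2 to 3 for VEA 12.5, 2 to 5 for the VEA average, and 2 to 4 (reported: 6) for PG 1100 on the endothelial scale, whose leave-one-out analyses were added after seeing the data. With only the groups compared in the fit, 4, 4 and 5 receptors were called at the 3 VEA doses and 6 for the VEA average. The share of all genes called was counted for the reported fit and the endothelial scale alone. Counts from the other alternatives therefore describe the fits and cannot be set against all genes. On the endothelial scale 1 was called at each dose and 1 for the average. Without a count filter 5 were called at VEA 12.5 and 6 for the VEA average. Without 3 libraries in which few genes were detected (animals 8, 13 and 65) 1 was called at VEA 6.25. For PG 826, the VEA trend, the vehicles and the difference between agents 0 were called in each alternative run. Over the 8 receptors, 10 comparisons and all alternatives run, 1135 fold changes kept direction and call, 26 gained a call, 26 lost one and 61 changed sign. On the endothelial scale the sign changed for PG 1100 against saline in Flt1 (0.22), Nrp1 (0.43) and Tie1 (0.026), and for PG 1100 against PG 826 in Flt1 (0.0026), Flt4 (0.27) and Nrp1 (0.46). It also changed for VEA 3.12 in Flt4 (0.20) and Nrp1 (0.20), VEA 6.25 in Flt4 (0.14), VEA 12.5 in Nrp1 (0.075) and Tie1 (0.085), and the VEA average in Flt4 (0.067) and Nrp1 (0.059). Values near 0 in comparisons without calls changed sign as well. On the endothelial scale these were Nrp1 for PG 826 (-0.0289), Nrp1 (-0.0625) and Tek (-0.0721) for ethanol against saline, and the trend slopes of Flt1 (0.000277) and Tek (0.00736). Nrp1 for PG 826 became -0.00841 with RLE factors, -0.0084 in DESeq2, -0.0157 without the 3 libraries and -0.00226 with only the groups compared. Tek for ethanol became -0.000635 (RLE), -0.000478 (DESeq2) and -0.00192 (only the groups compared). The Tek slope became 0.000109 (RLE), 0.000105 (DESeq2), 0.000917 (no Rn45s or haemoglobin), 0.000218 (only the groups compared) and 0.000679 (ranks). Without the 3 libraries, Acvrl1 for PG 826 became -0.0638, and Eng and Acvrl1 for ethanol became -0.0236 and -0.00256. Leaving out an animal gave sign changes in some comparisons. For PG 826, Kdr ran from -0.214 to 0.0817, Nrp1 from -0.0583 to 0.0969 and Acvrl1 from -0.0718 to 0.254. For ethanol against saline, Kdr ran from -0.0762 to 0.278, Nrp1 from -0.0565 to 0.0982, Tek from -0.0353 to 0.0277 and Acvrl1 from -0.0628 to 0.262. For the difference between agents, Flt1 ran from -0.417 to 0.178 and Tie1 from -0.0215 to 0.552, and for the trend Tek from -0.00847 to 0.00845 and Eng from -0.0182 to 0.000597. Flt4 was the one receptor that changed sign in a comparison with called receptors: for PG 1100 it ran from -0.26 (without PG 27; -0.0255 without saline 10) to 0.589, for VEA 3.12 from -0.210 to 0.0513 (without 59), and for VEA 6.25 from -0.253 to 0.0226 (without 64). By construction fits with fewer samples estimate the spread from fewer animals; otherwise the cause was not tested. With a prior count of 0.5 the correlation of Cdh5 was again 0.960. Without TMM 46 group levels stayed within 1 SD of those reported and 10 did not. No paired analysis was possible because the animals' numbers are not shared between groups. Flt4, with as few as 60 counts in a library, was measured least precisely.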
